A study of Rattus norvegicus with 9 samples.

Results

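Genes of the p53 pathway, of cell cycle arrest and of apoptosis were followed in the posterior cricoarytenoid, the laryngeal muscle that opens the vocal folds, of rats aged 6, 18 and 30 months. The set was given as 9 genes, and every probe set that the array annotation assigns to 1 of them alone was taken, weak signals included. That yielded 20 of 8740 probe sets, for 8 of the 9 genes and of 4736 named genes in all: *Cdkn1a*, *Cdkn1b*, *Gadd45a*, *Ccng1*, *Ccnd3*, *Bcl2*, *Bcl2l1* and *Faim2*. The ninth gene, *Bax*, a pore former of the mitochondrial death pathway, has 3 probe sets, all of which the annotation shares with the locus LOC681314, so it was left out. Each age had 3 Affymetrix Rat Genome U34 arrays, and each array held RNA pooled from 4 animals. The replicates are therefore pools, and p-values measure the spread between pools. The labels state neither strain nor sex. The series takes 6 months as its baseline and asks how expression in this muscle differs with age.

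The p53 protein is a transcription factor that damaged or stressed cells stabilise. Its targets include *Cdkn1a*, whose product p21 blocks cyclin-dependent kinases and halts the cell cycle, *Gadd45a*, a growth arrest and DNA damage response gene, *Ccng1*, which encodes cyclin G1, and *Bax*. BAX opens the outer mitochondrial membrane, and the products of *Bcl2* and *Bcl2l1* (BCL-X) hold that step back. Muscle fibres have left the cell cycle for good, and in skeletal muscle p21, p27 (*Cdkn1b*) and cyclin D3 (*Ccnd3*) are known from the exit of myoblasts into differentiation. *Gadd45a* and *Cdkn1a* are also known to rise in rodent muscle that has lost its nerve.

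Among the promoters of these genes, close matches to the p53 consensus were found in *Cdkn1a* and *Ccng1*, and these 2 are shown because of the match. The window of *Gadd45a*, also named above as a p53 target, had 4 mismatches at best. Promoter windows of RefSeq (GRCr8, 250 bases before to 50 after a start site) were found for 7 of the 8 genes. They were searched on both strands for a pair of adjoining p53 half-site consensus sequences, 20 bases in all with no spacer. At most 1 mismatch was allowed. Only the windows of *Cdkn1a* and *Ccng1* held such a match among the 10 windows of these genes, against 24 of 33469 windows of the genome (0.0717%). The 24 include these 2 windows. The set was put together around the p53 pathway, so the shares are not read as an enrichment. The match lies 201 to 182 bases before the start site in *Cdkn1a* (chr20:7150682-7150781, plus strand) and 242 to 223 bases before it in *Ccng1* (chr10:25685027-25685126, minus strand). The capitals mark the 20 bases of the match in the first 100 bases of each window, written 5′ to 3′. In each gene 1 of these 20 bases departs from the consensus.
Cdkn1a: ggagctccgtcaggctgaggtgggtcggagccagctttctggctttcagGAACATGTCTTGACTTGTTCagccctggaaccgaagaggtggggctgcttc
Ccng1: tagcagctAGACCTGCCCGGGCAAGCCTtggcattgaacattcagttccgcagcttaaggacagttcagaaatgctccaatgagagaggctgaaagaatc
A match is a description of the letters, and binding was not measured.

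The deposited values are MAS 5.0 signals, with a 2% trimmed mean of 500.9 to 501.0 on every array. Across probe sets, arrays within an age correlated on the log2 scale at 0.978 to 0.986 and arrays from different ages at 0.975 to 0.989. The labelled muscle showed in 9 measured fibre genes, whose summed signal was 168267 to 196130 at 6 months, 197380 to 240092 at 18 months and 205917 to 222912 at 30 months. A thyroid gene separated 2 arrays: thyroglobulin (*Tg*) read 628 on replicate 3 of 18 months and 555 on replicate 3 of 30 months, against 30.2 to 109 on the other 7. Leaving both arrays out gave 0 calls among the member probe sets in each comparison, as all 9 arrays did. In that setting 0 of all 8740 probe sets passed in each comparison too, so it could not have called a member.

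No member passed the test for a difference between ages, which ran across the whole array. Signals were analysed as log2(signal + 32) with limma, with Benjamini-Hochberg adjustment over all 8740 probe sets at 0.05. In that fit 0 of the 20 probe sets passed at 18 against 6 months, 0 at 30 against 6 months and 0 at 30 against 18 months. The background was low as well: 0.0686%, 0.149% and 0.0458% of all probe sets passed in these comparisons. At an unadjusted p under 0.05 the member counts were 1, 2 and 1, which are 5%, 10% and 5% of the 20, against 7.57%, 11.8% and 4.04% of all probe sets. The smallest adjusted p of a member was 0.638 at 18 against 6 months, 0.414 at 30 against 6 months and 1.00 at 30 against 18 months. The F-test for any difference among ages called 0 of 20, with 1 at an unadjusted p under 0.05, against 0.0686% and 8.3% of all probe sets.

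The sizes of the members' changes were set beside those of all probe sets. The median size of the log2 change, without sign, was 0.13 for the members and 0.14 for all probe sets at 18 against 6 months. It was 0.22 and 0.16 at 30 against 6 months, and 0.12 and 0.11 at 30 against 18 months. With sign, the members' median was -0.03, 0.04 and 0.07 in these comparisons, against -0.05, -0.07 and -0.02 for all probe sets. Of the 20 probe sets 8 lay higher and 12 lower at 18 against 6 months, and 12 lay higher and 8 lower in each of the other comparisons. Arrays of both ages did not overlap in 3 probe sets (15%) at 18 against 6 months, in 3 (15%) at 30 against 6 months and in 1 (5%) at 30 against 18 months. The background shares without overlap were 12.5%, 21.1% and 8.34%, and the members' shares lay near or below them. A ratio of mean signals over 1.7 without overlap was met by 0, 1 and 1 of the 20, against 3.59%, 6.2% and 3.02% of all probe sets.

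**Figure D1:**
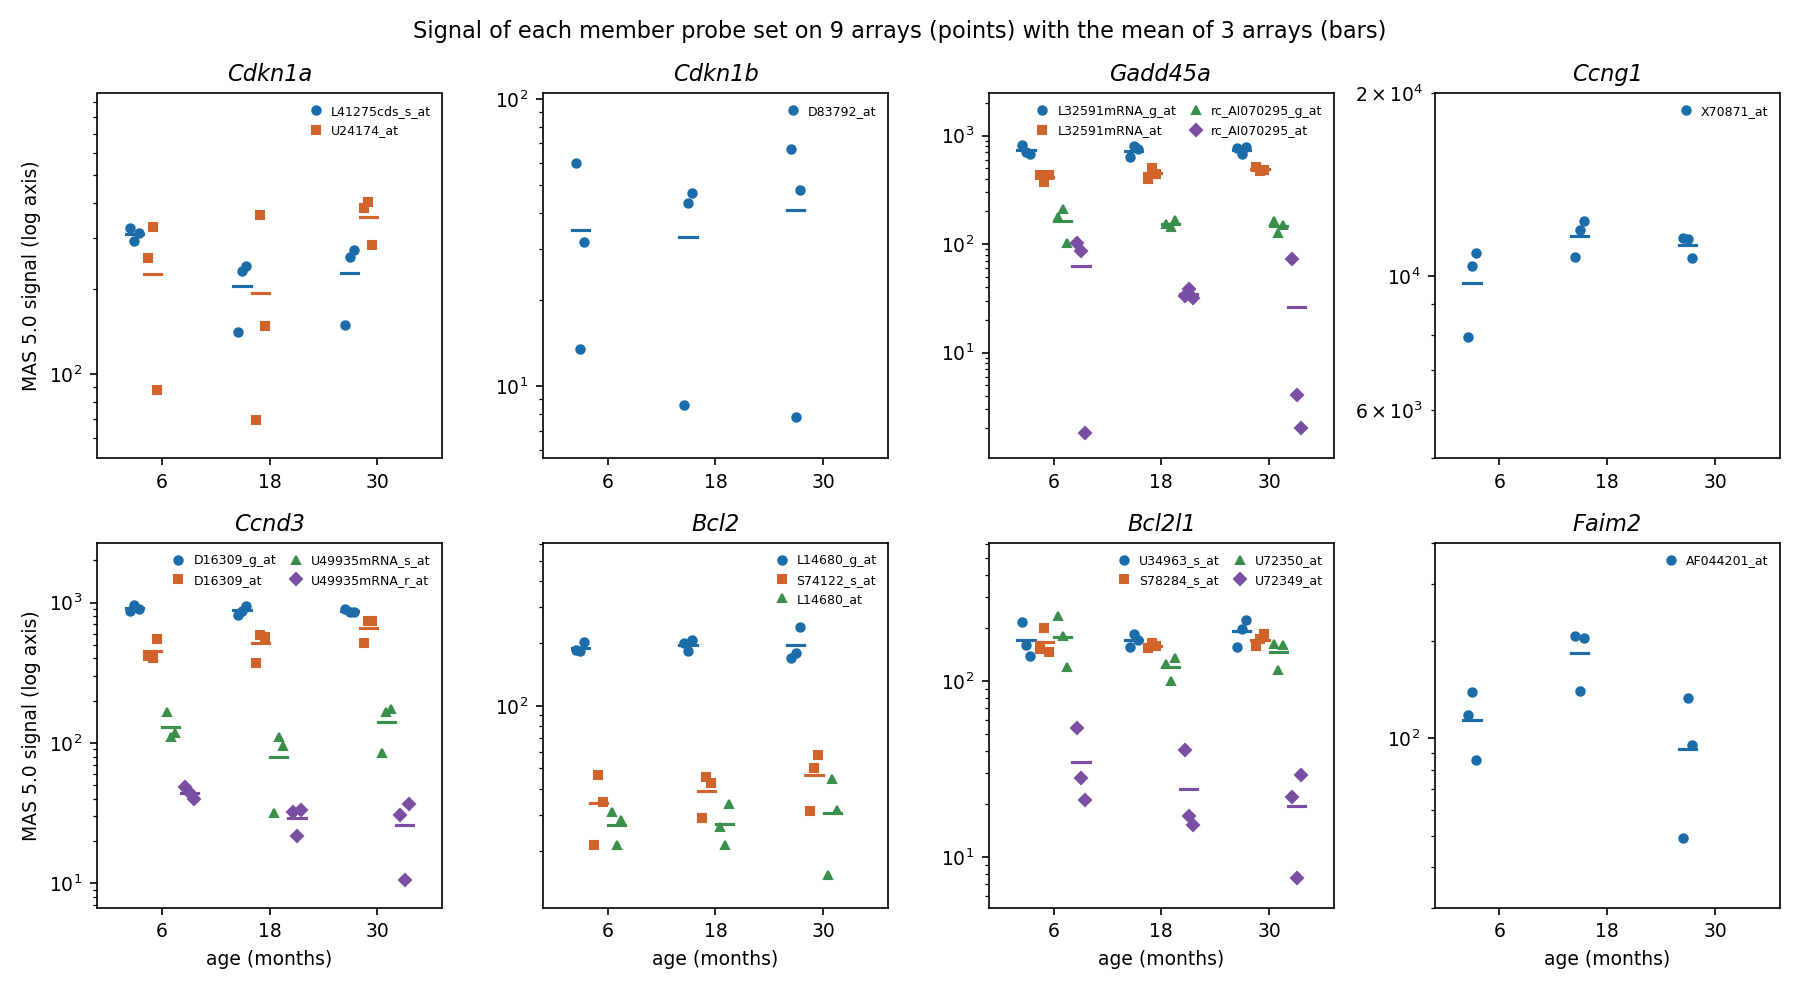
MAS 5.0 signal (log axis) of the 20 member probe sets by age in months, 1 panel per gene, with a point per array and a bar at the mean of 3 arrays. Within a gene the probe sets keep their own levels, and in most the points of the 3 ages overlap; the 3 arrays of *Cdkn1a* L41275cds_s_at at 6 months sit above those of both later ages.

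**Figure D2:**
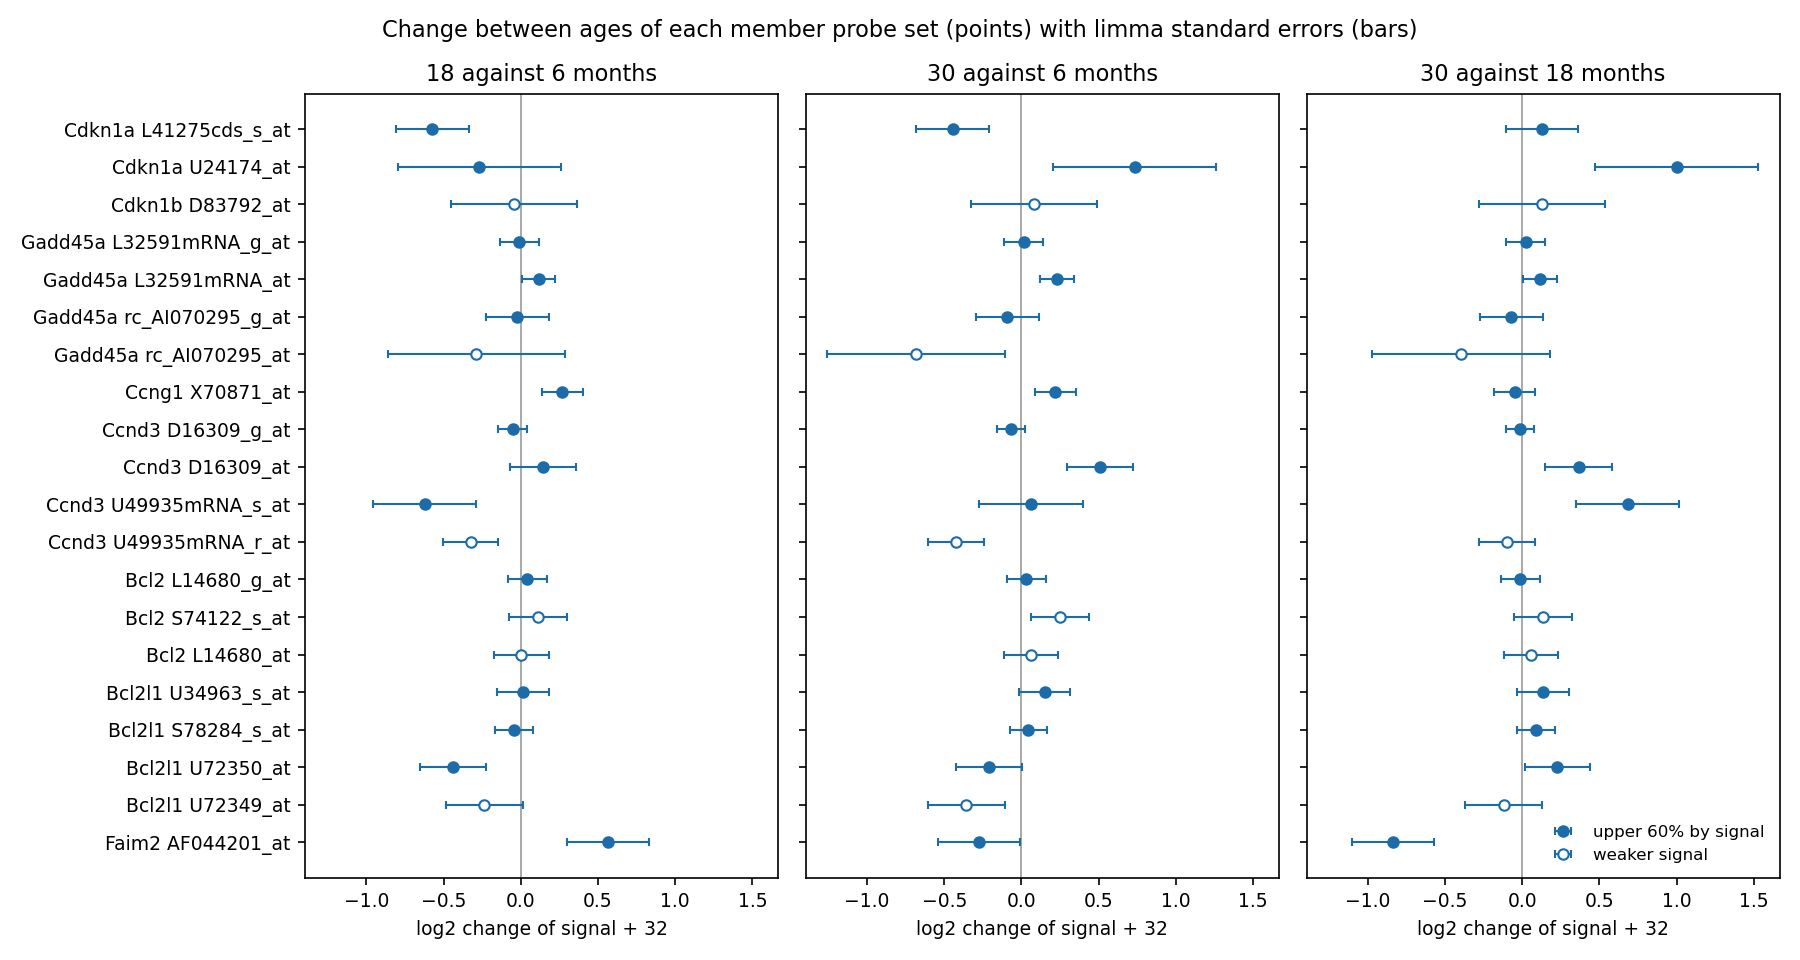
Log2 change of signal + 32 for each member probe set in the 3 comparisons, as points with limma standard errors, open where the mean log2 signal lies below the upper 60% of all probe sets. The widest bars belong to U24174_at of *Cdkn1a* and rc_AI070295_at of *Gadd45a*, and 0 of the changes passed the threshold.

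Of the kinase inhibitors, *Cdkn1a* gave readings that depended on the probe set. L41275cds_s_at gave 327, 294.5 and 313 in the 3 pools of 6 months, 141, 231 and 239.7 in those of 18 months, and 149, 258 and 274 in those of 30 months. All arrays of 6 months lay above all arrays of both later ages, and the lowest array at each later age was replicate 1. The log2 change was -0.57 at 18 against 6 months (SE 0.23, 95% interval -1.11 to -0.04, limma adjusted p = 0.638) and -0.45 at 30 against 6 months (SE 0.23, limma adjusted p = 0.484). Without replicate 1 of 18 months the first change was -0.36, and without replicate 1 of 30 months the second was -0.21.

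The other *Cdkn1a* probe set, U24174_at, read 256.1, 329 and 87.8 on the arrays of 6 months, 69.3, 361 and 147 on those of 18 months, and 383, 403 and 285 on those of 30 months. Its arrays spread widely within the first 2 ages and less at 30 months, and the ages overlapped in each pair. The log2 change at 30 against 6 months was 0.73 (SE 0.53, 95% interval -0.47 to 1.94, limma adjusted p = 0.597), on the other side of zero from L41275cds_s_at. At 30 against 18 months it was 1.00, the largest change of a member in any comparison (SE 0.53, 95% interval -0.20 to 2.21, limma adjusted p = 1.00). Single arrays moved both: without replicate 3 of 6 months the first was 0.26, and without replicate 1 or replicate 2 of 18 months the second was 0.54 or 1.52. Over the 9 arrays the 2 probe sets correlated at only r = 0.16, so no single course of *Cdkn1a* can be read from them. *Cdkn1b* was weak: D83792_at gave 59.8, 13.5 and 31.7 in the 3 pools of 6 months, 8.60, 43.3 and 47.2 in those of 18 months, and 67.0, 7.80 and 48.3 in those of 30 months. Its spread within each age exceeded any difference between ages, with a log2 change of 0.08 at 30 against 6 months and an interval of -0.85 to 1.01.

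**Figure D3:**
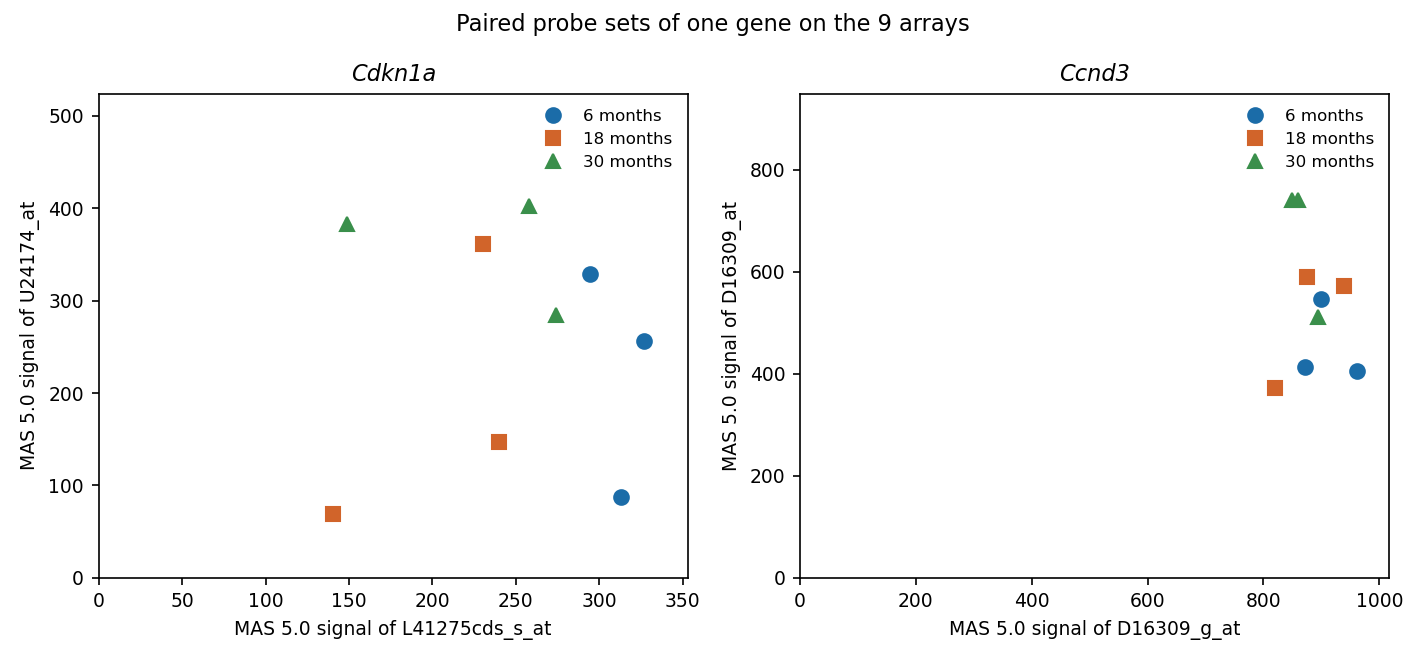
MAS 5.0 signal of paired probe sets on the 9 arrays, for *Cdkn1a* (L41275cds_s_at against U24174_at) and *Ccnd3* (D16309_g_at against D16309_at), with a point per array marked by age. The points form no line in either panel, with r of 0.16 for *Cdkn1a* and -0.12 for *Ccnd3* on the log2 scale over 9 arrays.

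*Gadd45a* differed little between ages by its strongest probe set. L32591mRNA_g_at read 819, 705 and 671 on the arrays of 6 months, 632, 806 and 747 on those of 18 months, and 762, 671 and 782 on those of 30 months. The 3 ages overlapped throughout, and the log2 change at 30 against 6 months was 0.01 with a 95% interval of -0.27 to 0.30. L32591mRNA_at gave 432, 375 and 430.3 in the 3 pools of 6 months, 402, 501 and 447 in those of 18 months, and 516, 468 and 479.9 in those of 30 months. There all arrays of 30 months lay above those of 6 months, by 0.23 on the log2 scale (SE 0.11, limma adjusted p = 0.445). The remaining probe sets lay on the other side: rc_AI070295_g_at ran from 102 to 211 over the 9 arrays with a change of -0.09, and the weak rc_AI070295_at from 1.80 to 102 with a change of -0.68 (SE 0.57) at 30 against 6 months that ran from -1.32 to -0.32 when 1 array was left out.

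Among the cyclins, *Ccng1*, which p53 induces in rodent and human cells, had a strong signal whose mean was higher at both later ages than at 6 months. X70871_at read 7926, 10376 and 10927 on the arrays of 6 months, 10744, 11898 and 12304 on those of 18 months, and 11538, 11501 and 10710.2 on those of 30 months. Replicate 1 of 6 months was the lowest array, and the other 8 overlapped between ages. The log2 change was 0.27 at 18 against 6 months (SE 0.13, 95% interval -0.04 to 0.57, limma adjusted p = 0.673) and 0.22 at 30 against 6 months (SE 0.13, 95% interval -0.09 to 0.52, limma adjusted p = 0.538). Leaving out replicate 1 of 6 months brought these to 0.13 and 0.08. Of the 2 genes with a match to the p53 consensus in their promoter window, neither passed in any comparison. Few of all probe sets did, at 0.0458% to 0.149% by comparison, so this says little about the 2 genes.

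*Ccnd3*, which encodes cyclin D3, a partner of CDK4 and CDK6, had 4 probe sets that went different ways. The strongest, D16309_g_at, gave 872, 961 and 900.1 in the 3 pools of 6 months, 819.5, 875 and 939 in those of 18 months, and 895, 859.5 and 849.9 in those of 30 months. It had the smallest spread within ages of the 20 probe sets (SE 0.091), with a log2 change of -0.07 at 30 against 6 months and a 95% interval of -0.28 to 0.14. D16309_at read 413, 406 and 547 on the arrays of 6 months, 373, 589 and 572 on those of 18 months, and 512, 739.6 and 741 on those of 30 months. Replicates 2 and 3 of 30 months were the highest of the 9 arrays, while replicate 1 of that age lay among the others. Its log2 change at 30 against 6 months was 0.51 (SE 0.21, limma adjusted p = 0.414).

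The U49935mRNA probe sets were weaker readings of *Ccnd3*. U49935mRNA_s_at gave 165, 110.1 and 118 in the 3 pools of 6 months, 31.5, 110.5 and 95.1 in those of 18 months, and 84.2, 167 and 173.5 in those of 30 months. The log2 change was -0.62 at 18 against 6 months (SE 0.34) and 0.06 at 30 against 6 months. U49935mRNA_r_at, below the upper 60% by signal, read 48.7, 44.8 and 39.6 on the arrays of 6 months, 32.3, 21.7 and 33.4 on those of 18 months, and 30.5, 10.5 and 37.0 on those of 30 months. Its arrays of 6 months lay above those of both later ages, and its change at 30 against 6 months was -0.43 (SE 0.18, limma adjusted p = 0.414). The ratio of mean signals was 1.71-fold lower there, past a fold rule of 1.7 without overlap that 6.2% of all probe sets met in this comparison. The array at 10.5, replicate 2 of 30 months, carried much of this: without it the ratio was 1.31-fold lower and the log2 change -0.22. On replicate 1 of both 18 and 30 months, L41275cds_s_at of *Cdkn1a* and D16309_at and U49935mRNA_s_at of *Ccnd3* each gave the lowest signal of their age. The same held for U34963_s_at and S78284_s_at of *Bcl2l1* and S74122_s_at of *Bcl2*, so for 6 of the 20 members in all, against 3 for replicate 2 and 1 for replicate 3. The share over all probe sets was not counted, and several of these probe sets belong to the same gene. The count is therefore not read as a trait of the members. Without replicate 1 of 18 months the change at 18 against 6 months was 0.34 for D16309_at and -0.26 for U49935mRNA_s_at. Without replicate 1 of 30 months the change at 30 against 6 months was 0.68 for D16309_at and 0.33 for U49935mRNA_s_at.

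The anti-apoptotic genes had 3 probe sets with close readings at the 3 ages, and a further one, U72350_at of *Bcl2l1*, with lower readings at 18 months. *Bcl2* by L14680_g_at gave 186, 183 and 203 in the 3 pools of 6 months, 200.3, 183.5 and 208 in those of 18 months, and 171, 179.8 and 241 in those of 30 months. All ages overlapped, and the log2 change at 30 against 6 months was 0.03 with a 95% interval of -0.26 to 0.32. Its other probe sets were weak, with S74122_s_at between 21.3 and 57.8 and L14680_at between 15.3 and 44.5 over the 9 arrays. *Bcl2l1* by U34963_s_at read 217, 160.1 and 138 on the arrays of 6 months, 157, 185 and 172 on those of 18 months, and 156, 199 and 223 on those of 30 months. S78284_s_at of the same gene was as even, at 147 to 202 over the 9 arrays, with a log2 change of 0.04 at 30 against 6 months and a 95% interval of -0.23 to 0.32.

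U72350_at of *Bcl2l1* gave 233.5, 179.7 and 119.8 in the 3 pools of 6 months, 125, 99.6 and 135 in those of 18 months, and 162, 115 and 161 in those of 30 months, a log2 change of -0.44 at 18 against 6 months (SE 0.21, limma adjusted p = 0.665). Its signal averaged 178, 119.6 and 146 at 6, 18 and 30 months. U34963_s_at averaged 172, 171 and 193 at these ages, and S78284_s_at 166.5, 159 and 171.5. The 3 were thus close at 6 months, and U72350_at was the weakest of them at both later ages. Leaving out replicate 1 of 6 months, its highest array, brought the change at 18 against 6 months to -0.25. The weak U72349_at ran from 7.60 to 54.3. Which transcripts of *Bcl2l1* each probe set reads is not given in the annotation used here, and none of the 4 passed.

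*Faim2*, which encodes an inhibitor of FAS-mediated cell death best known from neurons, was the member whose arrays of 30 and of 18 months did not overlap. AF044201_at read 118, 139 and 85.6 on the arrays of 6 months, 207, 140.3 and 204 on those of 18 months, and 49.3, 133 and 95.2 on those of 30 months. All arrays of 18 months lay above all arrays of 6 and of 30 months, at 6 months by the small margin between 140.3 and 139. The log2 change was -0.84 at 30 against 18 months (SE 0.27, 95% interval -1.44 to -0.23, limma adjusted p = 1.00), 0.56 at 18 against 6 months (SE 0.27, limma adjusted p = 0.655) and -0.27 at 30 against 6 months. The ratio of means was 1.98-fold lower at 30 against 18 months, past the fold rule of 1.7 without overlap that 3.02% of all probe sets met. Without replicate 1 of 30 months, the lowest array, the ratio was 1.61-fold lower and the log2 change -0.56. Genes of neurons gave summed signals of 888.5 to 994 at 6 months, 767 to 1028 at 18 months and 669.8 to 866 at 30 months over 9 measured of 11 listed genes, and 0 of them passed. The median log2 change of these 9 genes was -0.05 at 30 against 18 months, -0.07 at 18 against 6 months and -0.44 at 30 against 6 months, where 4 were lower at an unadjusted p under 0.05. Over all probe sets the medians were -0.02, -0.05 and -0.07 in this order. At 30 against 6 months 11.8% of all probe sets had an unadjusted p under 0.05 in either direction. The part of the neuron genes in the reading of *Faim2* was not tested.

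Probe sets of one gene often ran apart. Over 22 pairs in the 5 genes with several probe sets, r over the 9 arrays ran from -0.60 for D16309_at and U49935mRNA_r_at of *Ccnd3* to 0.81 for the rc_AI070295 pair of *Gadd45a*. These pairs share their arrays, and 12 of them include a probe set below the upper 60% by signal. In all, 14 of the 20 member probe sets lay in the upper 60% and 6 below it.

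The genes whose course was most like that of *Cdkn1a* L41275cds_s_at, among 4339 other named probe sets in the upper 60%, were *Arhgef7* (r = 0.97), *Pde4a* (0.92) and *Pip4k2b* (0.92) over the 9 arrays. *Arhgef7* averaged 240.4, 162 and 185.5 at 6, 18 and 30 months, and *Pde4a* 451, 319 and 349. For *Gadd45a* L32591mRNA_g_at they were *Bbx* (0.91), *Hsp90ab1* (0.87) and *Gse1* (0.86). These are the highest of all those values over the same arrays and are given as a description.

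Other genes of these pathways, in lists that leave out the members, gave 0 calls at the adjusted threshold. Only 0.0458% to 0.149% of all probe sets passed by comparison, so this says little about these genes. Of 38 listed p53 regulators and targets 9 were measured, and their median log2 change was -0.07 at 30 against 6 months, the same as that of all probe sets. *Mdm2*, the ubiquitin ligase that p53 induces and that removes p53, averaged 607 ± 17.8 at 30 months and 614 ± 71.3 at 6 months (SD, n = 3 each). *Btg1*, an anti-proliferative gene, averaged 1162 ± 90.7 at 30 months and 1217 ± 83.1 at 6 months, and *Pcna*, the replication clamp, 908 ± 64.4 and 830.5 ± 35.0 (SD, n = 3 each). *Mdm2* was picked after its values were seen, as the classical feedback gene, while *Btg1* and *Pcna* have the highest signals of the list.

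Of 45 cell cycle genes 25 were measured, with a median of -0.13 at 30 against 6 months and 18 of 25 lower. All probe sets had a median of -0.07 in this comparison, and the share of them that lay lower was not counted. *Cdk4*, the kinase partner of the D cyclins, averaged 706 ± 44.1 at 30 months and 657 ± 91.7 at 6 months, and *Rbl2*, a pocket protein that holds cells out of the cycle, 382.5 ± 67.9 and 425 ± 55.1 (SD, n = 3 each). In the BCL2 family 8 of 18 genes were measured, with a median of -0.06. The mitochondrial death gene *Bnip3l* averaged 1551 ± 59.99 at 30 months and 1615 ± 129 at 6 months, and the BH3-only gene *Bad* 423 ± 18.5 and 501 ± 51.9 (SD, n = 3 each).

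Of 38 caspases, death receptors and their inhibitors 14 were measured, with a median of -0.0042 at 30 against 6 months, 7 higher and 7 lower. *Tmbim6*, a Bax inhibitor of the endoplasmic reticulum, averaged 3309 ± 238 at 30 months and 3289 ± 139.7 at 6 months, and *Parp1*, a DNA damage sensor that caspases cleave, 956 ± 107 and 866 ± 149 (SD, n = 3 each). The inflammatory caspase gene *Casp1*, picked after its values were seen, had the smallest limma p of the 5 lists in the 3 comparisons: it averaged 179 at 30 months and 279 at 6 months, a log2 change of -0.56 (SE 0.12, limma adjusted p = 0.181). Of 22 senescence and secretory genes 17 were measured, with a median of 0.01. *Igfbp5*, which encodes an insulin-like growth factor binding protein, averaged 2086.5 ± 823 at 6 months, 1154 ± 157 at 18 months and 2179 ± 1179 at 30 months (SD, n = 3 each). Its log2 change was -0.78 at 18 against 6 months (limma adjusted p = 0.655) and 0.78 at 30 against 18 months (limma adjusted p = 1.00). *Vegfa* averaged 1524 ± 457, 1667 ± 276 and 1727 ± 331 at these ages (SD, n = 3 each).

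**Figure D4:**
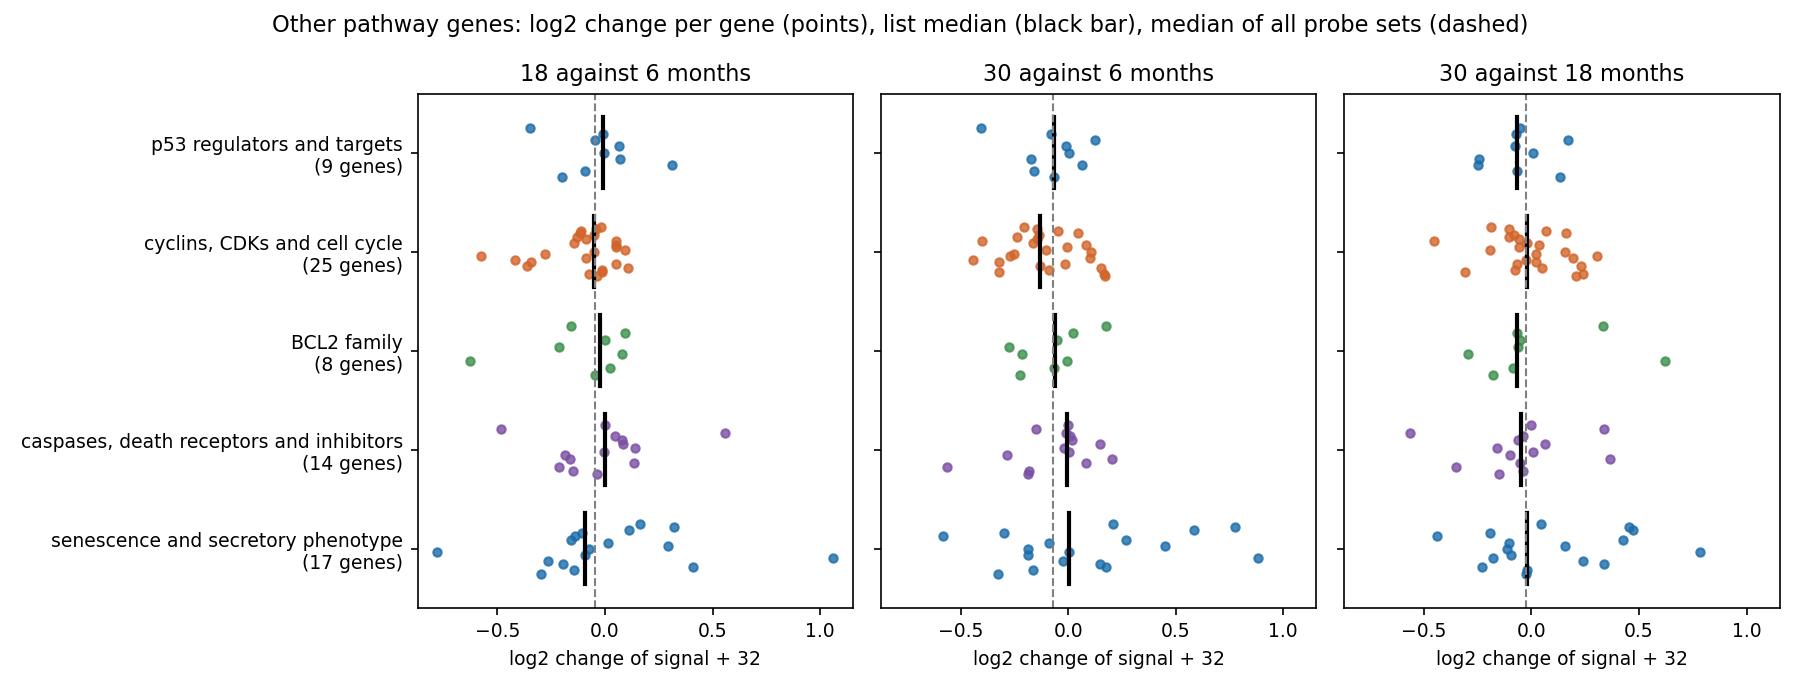
Log2 change of signal + 32 per gene in 5 pathway lists without the members (points), with the list median (black bar) and the median of all probe sets (dashed line), in the 3 comparisons. The medians at 30 against 6 months lie between -0.13 and 0.01, near the -0.07 of all probe sets.

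Markers of other cells were read on the same arrays. All 8 measured fibroblast genes were lower at 18 and at 30 months than at 6 months, with median log2 changes of -0.62 in both comparisons, and 1 of them, the collagen gene *Col1a2*, passed in each, against 0.0686% of all probe sets at 18 against 6 months and 0.149% at 30 against 6 months. Its log2 change was -1.11 at 18 against 6 months and -1.35 at 30 against 6 months. It was negative under all 15 alternatives of both comparisons, but missed the threshold in 10 of them at 18 against 6 months, with limma adjusted p up to 0.301, and in 7 at 30 against 6 months, with limma adjusted p up to 0.158. The summed fibroblast signal was 13704 to 13935 at 30 months and 16925 to 21412 at 6 months. The 9 fibre genes were all higher, with a median of 0.28 at 30 against 6 months, and 0 passed. Of 11 macrophage and leukocyte genes 8 were measured, with a median of 0.27 there, 6 higher and 2 lower, and 0 passed. Their summed signal was 1355 to 1514 at 6 months, 1183 to 1478.5 at 18 months and 1535 to 2049.5 at 30 months. Medians at 30 against 6 months were -0.17 for Schwann cells and -0.19 for epithelium, thyroid and cartilage. Those of satellite cells, endothelium with smooth muscle, and adipocytes were -0.08 to 0.01. In bulk RNA, fewer cells of a type and less RNA per cell cannot be told apart, and the part of these shifts in the readings of *Cdkn1a* and *Ccnd3* was not tested.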

How the data were processed

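The table holds signal intensity from Affymetrix Microarray Suite 5.0, which the authors computed on a linear scale and deposited for 8799 probe sets on 9 arrays, per the series' design text and the submitters' processing notes. The authors' detection and difference calls were not used here. After 59 controls were left out, 8740 probe sets were analysed as log2(signal + 32), without a filter because weak members were to be shown. Per GEO's platform annotation 7006 carry 1 gene symbol, 308 several and 1426 none. Each age had its own mean in a linear model, tested two-sided by moderated statistics (limma 3.58.1, R 4.3.3); the spread had 6 degrees of freedom from the arrays and 2.48 from the prior. The code was tested on simulated data. An exact permutation test of 3 arrays against 3 has 0.1 as its smallest p and was left aside. With few arrays precision is limited, and it differs between probe sets, with standard errors of 0.091 to 0.57 among the members. The members and lists were chosen with earlier results of these data known. Every member was named by every probe set; other genes by their strongest probe set, 2 per list with the highest signal unless a gene passed. Alternatives were other pseudocounts, a signal filter, quantile normalization, a replicate block and leaving out arrays.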

Additional observations from a re-analysis of the deposited data

How the results depend on the processing

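Among the 20 member probe sets 0 passed in each comparison and in the F-test under 14 fitted alternatives, and 0 of the 14 that the upper 60% by signal leaves passed under the other one, where 6 members were not tested, with a lowest limma adjusted p of 0.299, at 30 against 6 months with the replicate block. The fold rule of 1.7 without overlap called 0 members at 18 against 6 months, 1 at 30 against 6 months (U49935mRNA_r_at of *Ccnd3*) and 1 at 30 against 18 months (*Faim2*). The planned ratio of *Bax* to *Bcl2* and to *Bcl2l1* was not run, since *Bax* has no probe set of its own in the annotation.

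Counts over all probe sets moved more, and in a setting where such a count was 0 no member could pass. At 18 against 6 months the count was 6, with 0 under the replicate block, 0 without the 2 arrays of high thyroglobulin (an alternative chosen after seeing the data) and 0 to 7 with 1 array left out. At 30 against 6 months it was 13, with 7 at a pseudocount of 8, 2 under the block, 0 without the thyroglobulin arrays and 0 to 8 with 1 array left out. At 30 against 18 months it was 4, with 7 at a pseudocount of 8, 0 at the larger pseudocount tried, 1 in the upper 60% by signal, 0 under the block, 0 without the thyroglobulin arrays and 0 to 3 with 1 array left out. The cause was not tested. Same-numbered arrays of different ages deviated together with r of -0.02 to 0.26, over 0.1 in 4 of 9 pairs. Differently numbered arrays gave r of -0.21 to 0.15, over 0.1 in 2 of 18 pairs. Whether the numbers mark something shared by the samples was not tested. The main fit did not use them, and the replicate block was run only as an alternative.

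Of the 60 log2 changes of members, 27 changed sign under some alternative, the largest of these being -0.29 in the main setting. Quantile normalization, which moves the median of all probe sets from -0.05 to 0.0035 at 18 against 6 months, from -0.07 to -0.0076 at 30 against 6 months and from -0.02 to -0.0081 at 30 against 18 months, gave 6 of them. At 18 against 6 months these were *Cdkn1b* 0.031, *Gadd45a* L32591mRNA_g_at 0.013 and rc_AI070295_g_at 0.059, and *Bcl2l1* S78284_s_at 0.041. The others were rc_AI070295_g_at 0.018 at 30 against 6 months and *Bcl2* L14680_g_at 0.012 at 30 against 18 months. Without the thyroglobulin arrays 8 turned: *Bcl2* L14680_at -0.076 at 18 against 6 months, then at 30 against 6 months *Cdkn1b* -0.035, *Bcl2* L14680_g_at -0.10, *Gadd45a* L32591mRNA_g_at -0.027, *Bcl2l1* S78284_s_at -0.00082 and *Ccnd3* U49935mRNA_s_at -0.083, and at 30 against 18 months *Ccnd3* D16309_g_at 0.049 and *Ccng1* 0.027.

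Leaving out 1 array turned 26. At 18 against 6 months the ranges were -0.30 to 0.26 for *Cdkn1b*, -0.076 to 0.075 for *Bcl2* L14680_at, -0.034 to 0.25 for S74122_s_at, -0.082 to 0.085 for *Gadd45a* L32591mRNA_g_at, -0.92 to 0.074 for rc_AI070295_at and -0.27 to 0.16 for rc_AI070295_g_at. They were -0.11 to 0.079 for *Bcl2l1* S78284_s_at, -0.11 to 0.17 for U34963_s_at and -0.78 to 0.20 for *Cdkn1a* U24174_at. At 30 against 6 months they were -0.51 to 0.0051 for *Faim2*, -0.19 to 0.47 for *Cdkn1b*, -0.098 to 0.25 for *Bcl2* L14680_at, -0.10 to 0.11 for L14680_g_at, -0.043 to 0.095 for *Gadd45a* L32591mRNA_g_at, -0.34 to 0.089 for rc_AI070295_g_at, -0.026 to 0.17 for *Bcl2l1* S78284_s_at and -0.083 to 0.33 for *Ccnd3* U49935mRNA_s_at. At 30 against 18 months they were -0.060 to 0.034 for *Ccnd3* D16309_g_at, -0.24 to 0.11 for U49935mRNA_r_at, -0.18 to 0.52 for *Cdkn1b*, -0.10 to 0.24 for *Bcl2* L14680_at and -0.14 to 0.070 for L14680_g_at. They were -0.071 to 0.096 for *Gadd45a* L32591mRNA_g_at, -0.14 to 0.017 for rc_AI070295_g_at, -0.084 to 0.37 for *Cdkn1a* L41275cds_s_at and -0.25 to 0.076 for *Bcl2l1* U72349_at.

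With 3 pools per age, changes smaller than the intervals given could not be resolved, and the adjusted threshold is coarser than these intervals. The change of *Faim2* at 30 against 18 months, for one, did not pass though its interval was -1.44 to -0.23. Larger changes of members can therefore have gone uncalled as well. Of the 20 probe sets, 6 lie below the upper 60% by signal.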
